A study of Mus musculus with 8 samples.

Results

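The cadherin family was examined in open chromatin of the mouse brain through 10 listed genes, Cdh2, Cdh4, Cdh6, Cdh7, Cdh8, Cdh9, Cdh10, Cdh11, Cdh12 and Cdh13, out of 21887 protein-coding genes in the RefSeq table for build GRCm38.p6 (mm10). The assay was ATAC-seq, in which open DNA is cut and tagged by a transposase, and the 8 libraries came from C57Bl/6J mice with 50000 nuclei each. For 4 libraries the dLGN, the visual relay nucleus of the thalamus, was microdissected at postnatal day 32. Of these, 2 came from mice on PLX chow, which carries the compound labelled PLX5562 to remove microglia, and 2 from mice on control chow, both diets being fed from postnatal day 20. The other 4 libraries came from untreated mice at postnatal day 27, as 2 Fn14 KO and 2 Fn14 WT littermate libraries from frozen coronal sections with cortex, hippocampus and dLGN. Fn14 is the receptor of the cytokine TWEAK. The cell types in which Fn14 was deleted are not stated, and neither is whether a library is 1 mouse or a pool, so p-values measure the spread between these libraries only.

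Classical cadherins are transmembrane adhesion proteins whose extracellular repeats bind cadherins on a neighbouring cell in the presence of calcium. Their cytoplasmic tail binds beta-catenin and p120-catenin, and alpha-catenin links the complex to actin. In the brain, combinations of cadherins help neurons sort into nuclei and layers and take part in synapse formation. Cdh2 and Cdh4 are type I members, and Cdh6 to Cdh12 are type II members. Cdh13, or T-cadherin, is held in the membrane by a lipid anchor and lacks the catenin-binding tail, so the label of classical cadherin fits it only in a loose sense.

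The RefSeq promoter table for mm10 had entries for 6 of the 10 genes, Cdh6, Cdh7, Cdh8, Cdh9, Cdh10 and Cdh12. A deposited peak lay over the listed promoter of Cdh6, Cdh7, Cdh8, Cdh9 and Cdh12 in all 8 libraries, and over that of Cdh10 in 7. For Cdh10 and Cdh12, on the plus strand, the listed starts (18820329 and 21111452) lie inside the gene. At the lower gene end both had a peak in all 8 libraries. The −log10 p there was 275 to 326 in dLGN and 58.9 to 108 in sections for Cdh10. For Cdh12 it was 73.2 to 108 in dLGN and 50.7 to 75.6 in sections. The 4 listed promoters with the highest −log10 p are shown, and these lower-end peaks are not among them. Each line gives the 250 bases upstream of the start in the direction of transcription, with capitals marking GGGCGG (the core bound by Sp1-type zinc fingers) and CANNTG (the E-box) on either strand.
Cdh6, minus strand, chr15:13173676-13173925: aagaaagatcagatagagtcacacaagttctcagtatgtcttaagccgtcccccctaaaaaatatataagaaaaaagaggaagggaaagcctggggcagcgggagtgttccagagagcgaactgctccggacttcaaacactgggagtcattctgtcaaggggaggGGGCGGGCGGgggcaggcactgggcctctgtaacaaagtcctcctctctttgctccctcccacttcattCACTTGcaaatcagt
Cdh8, minus strand, chr8:99416472-99416721: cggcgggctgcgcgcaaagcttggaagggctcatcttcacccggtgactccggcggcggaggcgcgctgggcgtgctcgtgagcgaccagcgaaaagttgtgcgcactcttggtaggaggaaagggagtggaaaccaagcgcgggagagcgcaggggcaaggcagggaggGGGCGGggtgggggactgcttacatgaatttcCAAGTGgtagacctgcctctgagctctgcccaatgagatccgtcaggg
Cdh7, plus strand, chr1:109982650-109982899: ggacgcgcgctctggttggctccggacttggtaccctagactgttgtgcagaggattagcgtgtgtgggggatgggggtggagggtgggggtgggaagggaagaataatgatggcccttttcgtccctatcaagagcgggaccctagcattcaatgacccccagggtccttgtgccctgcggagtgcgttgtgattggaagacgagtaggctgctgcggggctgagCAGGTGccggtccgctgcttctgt
Cdh9, plus strand, chr15:16728665-16728914: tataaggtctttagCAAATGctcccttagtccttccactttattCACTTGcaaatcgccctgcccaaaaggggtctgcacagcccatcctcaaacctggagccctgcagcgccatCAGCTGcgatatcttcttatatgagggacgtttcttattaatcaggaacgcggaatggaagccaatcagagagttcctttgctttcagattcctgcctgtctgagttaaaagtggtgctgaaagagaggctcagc

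The Cdh6 stretch held 2 copies of GGGCGG that share 2 bases, at −84 and −80 from the start, and 1 E-box at −15. The Cdh8 stretch held 1 GGGCGG at −80 and 1 E-box at −48. The Cdh7 stretch, one of 3 starts listed for this gene within a single peak region, held 1 E-box at −24. The Cdh9 stretch held 3 E-boxes, at −236, −206 and −135, and no GGGCGG. Over all 32851 promoters of the table, 32.7% held GGGCGG and 66.2% held CANNTG in the same 250 bases. The cAMP response element TGACGTCA (1.55% of promoters), the AP-1 element TGANTCA (6.75%) and the TCF element ATCAAAG (3.21%) were searched on both strands and were in none of the 4 stretches. GC content was 51.2% for Cdh6, 64.4% for Cdh8, 60.8% for Cdh7 and 48% for Cdh9. The peak summit fell close to the start in every library for Cdh6, 33 to 61 bases after it. For Cdh9 it lay between 378 bases before and 5 bases after the start.

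Each promoter peak is described by the authors' −log10 p, which depends on depth, and by its rank within its own list. The Cdh6 promoter region, chr15:13172602-13174338, showed a −log10 p of 414 and 279 with PLX chow, 414 and 337 with control chow, 87.1 and 88.5 in the Fn14 KO libraries and 89.5 and 71.4 in the Fn14 WT libraries. It ranked 1870 to 3537 in the dLGN lists and 8638 to 11246 in the section lists. The Cdh8 promoter region showed a −log10 p of 91.2 to 140 in dLGN and 48.3 to 62.0 in sections, with ranks of 9638 to 16777 in dLGN and 13432 to 16406 in sections. The Cdh9 promoter region showed a −log10 p of 48.5 to 80.7 in dLGN and 33.3 to 75.3 in sections, with ranks of 23159 to 28998 in dLGN and 13236 to 20365 in sections. The dLGN lists ran higher throughout: the median −log10 p of the selected regions was 56.7 to 74.4 in the dLGN lists and 27.8 to 42.9 in the section lists. A higher −log10 p in dLGN is therefore not a result by itself.

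To give every library a list of 1 length, overlapping peaks were merged and each list was reduced to its 50000 strongest regions by −log10 p ("selected"). Regions were then counted in a window of the gene body extended by 50 kb on each side. The deposited lists held 248989 to 299822 peaks, the selected regions covered 31.7 to 36.5 Mb, and the weakest selected region showed a −log10 p of 13.4 (Fn14 WT 2) to 33.0 (control chow 1). Over the 10 windows, 106 and 95 selected regions were counted with PLX chow, 104 and 104 with control chow, 87 and 84 in the Fn14 KO libraries and 90 and 79 in the Fn14 WT libraries. Joined over the 8 libraries they formed 184 regions, 162 of them (88.0%) inside a cadherin gene. The cadherin regions were selected in all 8 libraries in 29 cases, or 15.8%, against 25.6% of the regions of the whole series. A peak of any strength was present in all 8 libraries at 105 of the 184 regions (57.1%).

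Per length, Cdh11 and Cdh2 had the most selected regions, with 56.2 and 52.3 per Mb of window in dLGN and 28.6 and 34.3 per Mb in sections. Cdh6 followed in dLGN with 40.4 per Mb, against 21.2 per Mb in sections. Cdh9, at 5.47 per Mb in dLGN and 12.0 per Mb in sections, and Cdh12, at 6.80 and 8.40 per Mb, were the sparsest in both tissues, followed by Cdh7 at 8.55 and 13.3 per Mb. The median of the 10 genes was 18.1 per Mb in dLGN and 18.7 per Mb in sections, against 30 and 33.2 per Mb over all genes with a selected region. The cadherin windows were 229 to 1285 kb long and held at most 2 other genes of the table. The genes they are set against were not matched for window length or gene content.

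The first comparison asked how the cadherin genes differ between dLGN and the larger section. Cdh2, Cdh6 and Cdh11 had more selected regions in every dLGN library than in any section library, and no gene had fewer in every one. Windows without overlap made up 7.82% of the 19210 genes with a selected region in the higher direction and 12.4% in the lower direction. The mean difference was above 0 for 5 of the 10 genes and below 0 for 5, with a median of 0.375 regions, against −0.250 over all genes. A test across genes was added after the counts had been seen: limma on log2 of the count plus 0.5, over the 8037 genes with a mean of at least 5 regions. It called Cdh2, Cdh6 and Cdh11 of the 8 cadherin genes it covered, all higher, where 28.5% of all genes were called and 9.97% were called higher. The adjusted p of the other 5 cadherin genes was 0.0859 to 0.716. Leaving out Fn14 KO 1 raised the number of cadherin genes without overlap to 6, as Cdh13 became higher and Cdh7 and Cdh9 lower, among 22.8% of all genes in either direction, against 20.3% with all libraries. Between the control chow and Fn14 WT libraries alone 7 of the 10 separated, among 37.3% of all genes. The tissues also differ in age and dissection, freezing is stated for the sections alone, and each side holds 2 libraries of treated or mutant mice. These cannot be told apart from tissue, nor can fewer cells of a type from less open chromatin per cell.

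**Figure D1:**
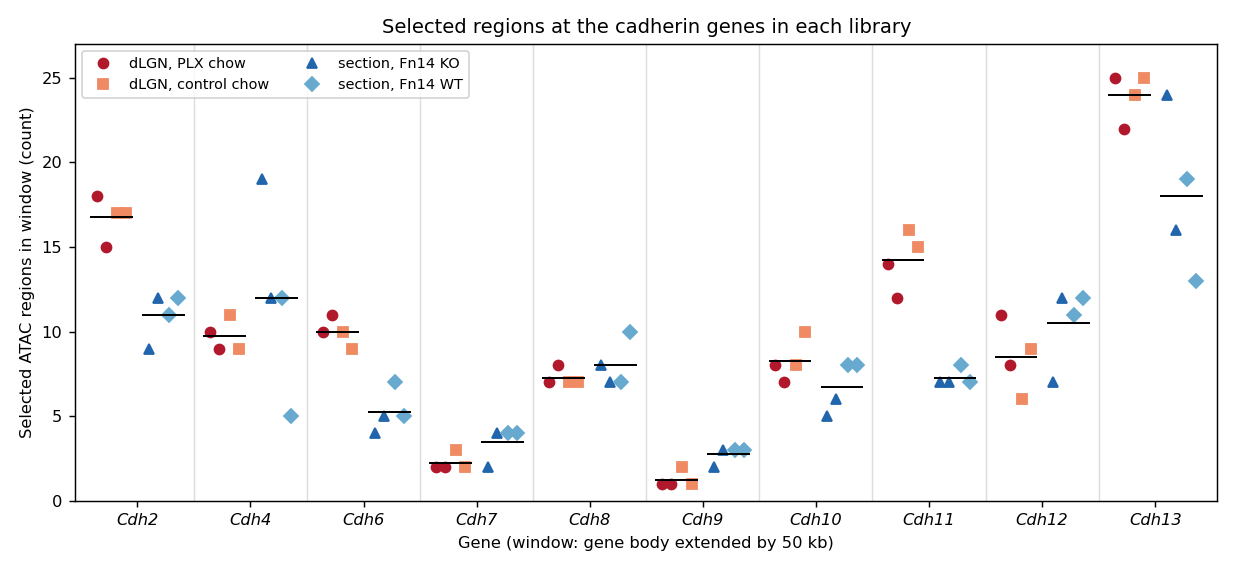
Number of selected regions (y axis, count) in the window of each cadherin gene (x axis). Each symbol is a library, with the 4 dLGN libraries left of the 4 section libraries and black lines at the tissue means. Cdh2, Cdh6 and Cdh11 separate without overlap, Cdh9 touches at 2 regions, and Cdh4 spreads from 5 to 19 among the sections.

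Among the type I genes, Cdh2 (N-cadherin, found at synapses and in neural epithelia; chromosome 18, 16588877 to 16809246, 220 kb) had 18 and 15 regions with PLX chow, 17 and 17 with control chow, 9 and 12 in the Fn14 KO libraries and 11 and 12 in the Fn14 WT libraries. The lowest dLGN library was 3 regions above the highest section library. The means were 16.8 ± 1.26 in dLGN and 11 ± 1.41 in sections (SD, n = 4 each). The exact permutation test gave a 2-sided p of 0.029, the smallest that 4 libraries against 4 can give, and 0.14 after Benjamini-Hochberg adjustment over all genes. In limma the difference was 0.59 (SE 0.112, log2 scale) with an adjusted p of 0.0215. This adjusted p was 0.0644 without PLX chow 1, 0.0722 without control chow 1, 0.0741 without control chow 2, 0.0726 without Fn14 WT 1 and 0.0596 without Fn14 WT 2, so the limma call of Cdh2 needs each of these libraries.

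The Cdh2 region with the highest −log10 p in any library lay inside the gene about 6 kb from its lower end, at 16594661 to 16595599. That choice goes by the dLGN lists, where values run higher, so its tissue difference is a description. It showed a −log10 p of 367, 190, 264 and 251 in the dLGN libraries, against 24.4, 4.31, 24.2 and 11.3 in the section libraries. It was selected in all 4 dLGN libraries and in 2 section libraries, Fn14 KO 1 and Fn14 WT 1. The region at the upper gene end, 16807688 to 16809987, was stronger than it in every section library, with 80.4, 71.8, 72.8 and 78.0, and showed 172, 162, 217 and 183 in the dLGN libraries. The gene also held 3 regions selected in every section library and no dLGN library. At one of them, 16671030 to 16671378, the −log10 p was none, 4.12, 7.48 and none in the dLGN libraries and 46.2, 50.5, 22.6 and 33.4 in the section libraries. A further 5 regions had the opposite pattern. Over the 10 windows, regions selected in every dLGN library and no section library made up 12.5%, against 8.95% of all regions of the series. The reverse made up 6.52%, against 6.40% of the series, so the counts on the section side are at the background.

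Cdh4 (R-cadherin, first known from the retina; chromosome 2, 179442423 to 179899377, 457 kb) had 10, 9, 11 and 9 regions in the dLGN libraries, against 19, 12, 12 and 5 in the section libraries. The section values surrounded the dLGN values, and the exact permutation p was 0.57. The Cdh4 window also reaches Taf4 and 4930591A17Rik. Its strongest region, at the lower gene end (179442111 to 179443925), had a similar place in every list, with ranks of 12743 to 16552 in dLGN and 8646 to 15065 in sections.

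Among the type II genes, Cdh6 (K-cadherin, which in mouse helps retinal axons reach visual nuclei that do not form images; chromosome 15, 13028699 to 13176407, 148 kb) had 10 and 11 regions with PLX chow, 10 and 9 with control chow, 4 and 5 in the Fn14 KO libraries and 7 and 5 in the Fn14 WT libraries. The groups did not overlap, and the means were 10 ± 0.816 in dLGN and 5.25 ± 1.26 in sections (SD, n = 4 each). The exact permutation p was 0.029 (0.14 adjusted), and limma gave 0.89 (SE 0.129, log2 scale) with an adjusted p of 0.0117, which was 0.0506 without control chow 1 and stayed under 0.05 without any other single library.

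Cdh11 (OB-cadherin, best known from bone and mesenchyme and also made by neurons; chromosome 8, 102632095 to 102785493, 153 kb) had 14 and 12 regions with PLX chow, 16 and 15 with control chow, 7 and 7 in the Fn14 KO libraries and 8 and 7 in the Fn14 WT libraries. The lowest dLGN library was 4 regions above the highest section library, the widest gap of the 10 genes. The means were 14.2 ± 1.71 in dLGN and 7.25 ± 0.5 in sections (SD, n = 4 each), the exact permutation p was 0.029 (0.14 adjusted), and limma gave 0.92 (SE 0.0723, log2 scale) with an adjusted p of 0.00434, which was at most 0.0195 without any single library. Cdh11 held 4 regions selected in every dLGN library and no section library, and none of the opposite kind, to be read against the same shares of 8.95% and 6.40%. The strongest of these, chr8:102715873-102716700 inside the gene, reached 226, 162, 244 and 166 (−log10 p) in the dLGN libraries, against 17.6, 16.6, 14.8 and 6.21 in the section libraries. A second one, chr8:102732352-102733073, had 127, 58.9, 101 and 82.9 in the dLGN libraries and 7.08, 4.81, 4.42 and 2.60 in the section libraries. Both were chosen after their values were seen.

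The other type II genes did not separate the tissues at this list length. Cdh8 (chromosome 8, 99024471 to 99417666), made by subsets of cortical and thalamic neurons, had 7, 8, 7 and 7 regions in the dLGN libraries, against 8, 7, 7 and 10 in the section libraries. Its region with the highest −log10 p in any library, chr8:99234047-99235179 inside the gene, again went by the dLGN lists, and ranked 3591 to 6047 there and 10748 to 31641 in the section lists. In Fn14 KO 1, Fn14 KO 2 and Fn14 WT 2 the Cdh8 promoter region was the stronger of the pair. Cdh10 (chromosome 15, 18818869 to 19016206) had 8, 7, 8 and 10 regions in the dLGN libraries and 5, 6, 8 and 8 in the section libraries. Its strongest region spans the lower gene end, which also carries the non-coding gene C030047K22Rik. Inside Cdh10 and near the other end of the gene, chr15:19013031-19013752 showed a −log10 p of 99.2, 55.4, 116 and 83.3 in the dLGN libraries and 5.61, 5.5, 4.58 and 3.77 in the section libraries. It was the one Cdh10 region selected in every dLGN library and no section library.

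Cdh7 (chromosome 1, 109982237 to 110145272), studied in chick for its part in neural crest migration, had 2, 2, 3 and 2 regions in the dLGN libraries and 2, 4, 4 and 4 in the section libraries. Cdh12 (chromosome 15, 20448878 to 21598421, 1150 kb), also called brain cadherin, had 11, 8, 6 and 9 regions in the dLGN libraries and 7, 12, 11 and 12 in the section libraries, and its window also holds Acot10. Cdh9 (chromosome 15, 16728550 to 16857138, 129 kb), which takes part in forming the mossy fibre synapses of the mouse hippocampus, had 1, 1, 2 and 1 regions in the dLGN libraries and 2, 3, 3 and 3 in the section libraries. Cdh9 met at 2 regions in control chow 1 and Fn14 KO 1, and its exact permutation p was 0.057.

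Cdh13 (T-cadherin, also a receptor of adiponectin; chromosome 8, 118140017 to 119324929, 1185 kb) had the most regions of the 10 genes, 25, 22, 24 and 25 in the dLGN libraries and 24, 16, 19 and 13 in the section libraries. Fn14 KO 1 lay among the dLGN values and the exact permutation p was 0.086. No library had a peak within 1 kb of either end of the Cdh13 span in the gene table. The promoter table had no entry for Cdh13, so this does not show that its promoter is closed. About 144 kb inside the span, chr8:118283408-118285021 was selected in all 8 libraries. Its −log10 p was 85.4, 78.5, 77.0 and 93.6 in the dLGN libraries and 48.1, 52.2, 23.1 and 31.6 in the section libraries. Whether it marks a start of Cdh13 was not tested. The strongest region of the Cdh13 window, 119343777 to 119345038, overlaps the lower end of the neighbouring gene Hsbp1 and lies 18848 bp beyond Cdh13. It is included in the window counts above, and it is not taken as a Cdh13 element. Over the gene body alone the counts were 23, 20, 23 and 23 in the dLGN libraries and 23, 15, 18 and 12 in the section libraries. Inside Cdh13, 5 regions were selected in every dLGN library and no section library, and 2 showed the opposite. The strongest of the 5, chr8:118257184-118258241, showed a −log10 p of 246, 120, 245 and 158 in the dLGN libraries, against 14.4, none, 7.80 and none in the section libraries. At chr8:119020747-119021882 the dLGN libraries had 8.78, 3.67, 7.88 and 5.21 and the section libraries 65.3, 37.2, 45.1 and 27.3.

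A stricter rule asked for regions selected in all 4 libraries of 1 tissue with no deposited peak of any strength in the other. Of the 184 cadherin regions, 2 were dLGN-only and 5 were section-only, where 1.05% and 1.90% of the 90690 regions of the series met those rules. All 7 lay inside the genes. Leaving out PLX chow 2 gave 4 dLGN-only regions, and leaving out Fn14 KO 1 gave 8 section-only regions. The shares over the series at these settings are not given, so these counts show only that the calls depend on single libraries. The dLGN-only region of Cdh4, chr2:179459260-179460156, showed a −log10 p of 56.7 and 44.5 with PLX chow and 56.9 and 49.9 with control chow, with folds over local background of 8.31 to 9.54. The dLGN-only region of Cdh6, chr15:13121541-13122306, had 38.2, 36.1, 48.7 and 50 in the same libraries, with folds of 6.45 to 6.70. The strongest section-only region lay in Cdh9, chr15:16763118-16763638, with a −log10 p of 100 and 71.6 in the Fn14 KO libraries and 57.0 and 52.9 in the Fn14 WT libraries. Its ranks of 9633 to 13849 placed it above the Cdh9 promoter region in each of the 4 section lists.

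The other section-only regions lay in Cdh12, Cdh7 and Cdh8. Cdh12 held 2 of them, chr15:21405095-21405933 with a −log10 p of 65.9, 54.7, 45.6 and 32.5 in the section libraries, and chr15:20971084-20971655 with 34.3, 30.3, 42.6 and 24.4. The Cdh7 region, chr1:110067207-110067825, had 22.0 and 58.9 in the Fn14 KO libraries and 44.7 and 47.7 in the Fn14 WT libraries. The Cdh8 region, chr8:99370111-99370730, had 22.0, 34.8, 25.8 and 26.1. The KO libraries spanned the WT values at Cdh7 and Cdh8, and no cadherin gene carried regions of both kinds.

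**Figure D2:**
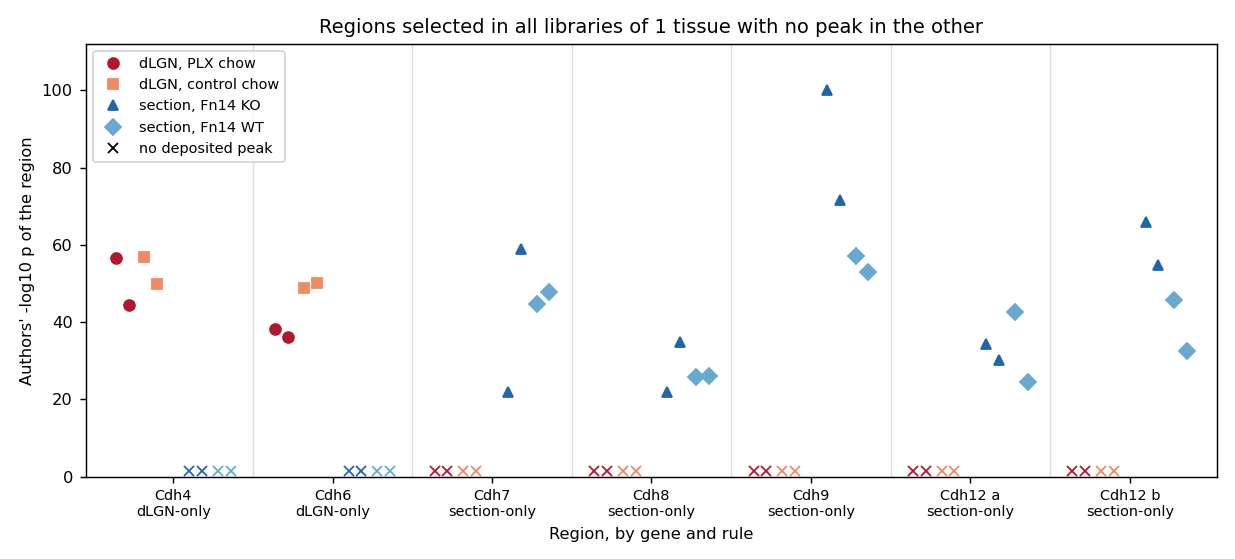
The authors' −log10 p (y axis) in each library for the 7 regions found in 1 tissue only (x axis; a and b are the Cdh12 regions in order of position). Crosses at the bottom mark libraries with no deposited peak, and the Cdh9 region has the highest values, 52.9 to 100.

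**Figure D3:**
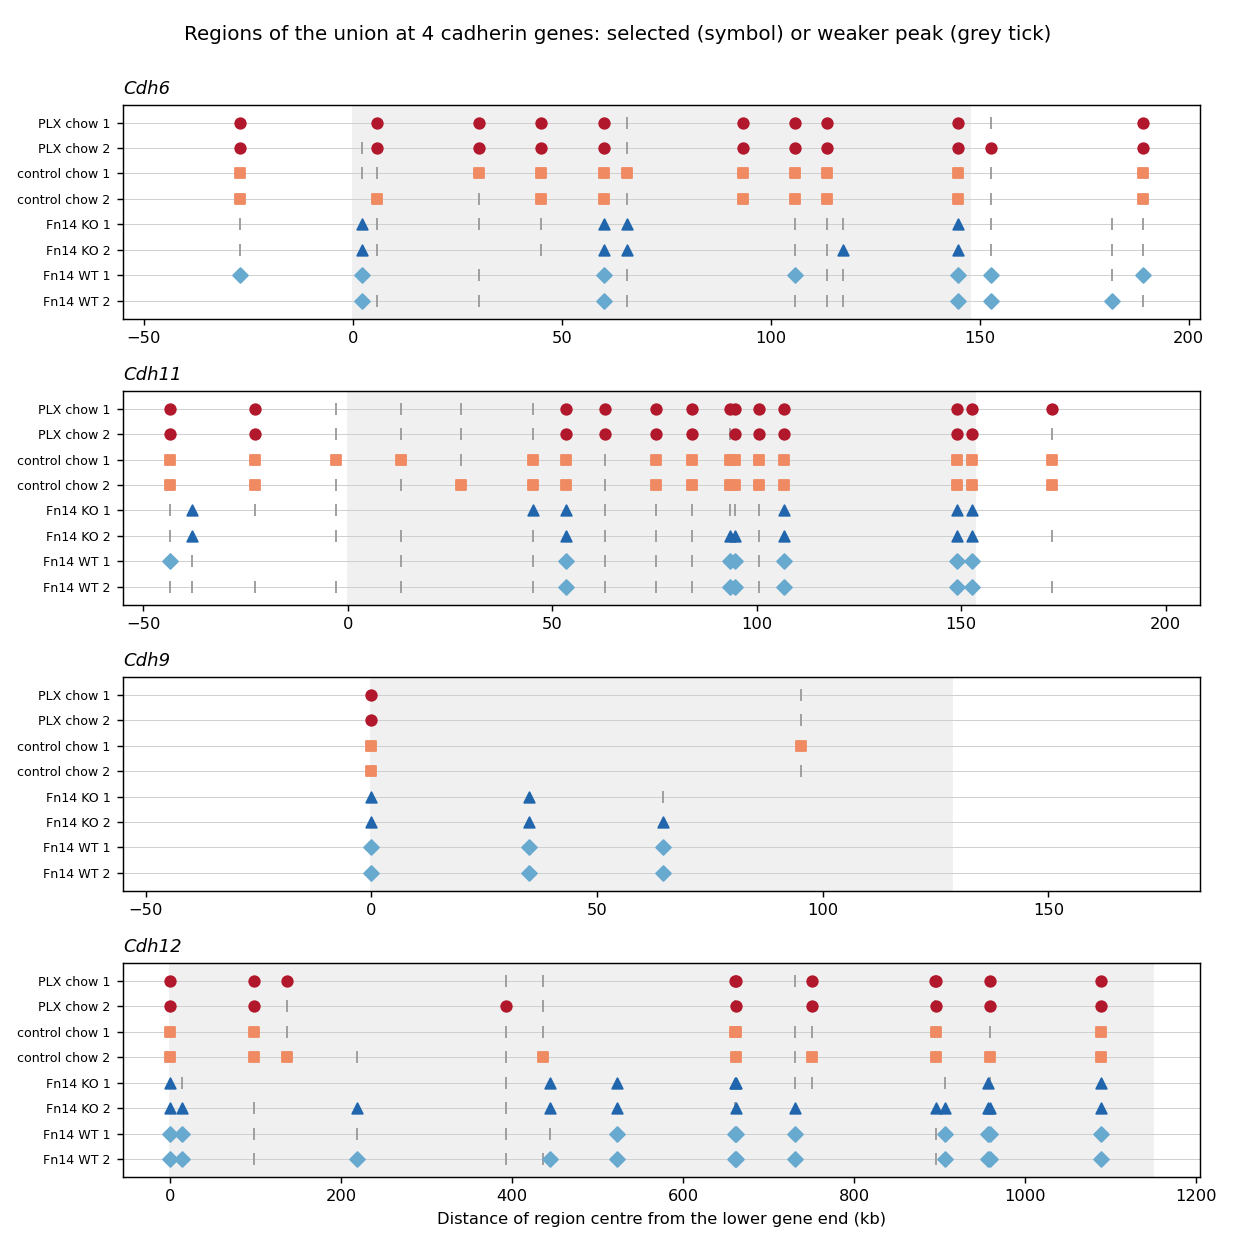
Place of each region (x axis, distance of its centre from the lower gene end in kb; grey band, gene body) in the 8 libraries (rows) for Cdh6, Cdh11, Cdh9 and Cdh12. Coloured symbols are selected regions and grey ticks are weaker peaks. At Cdh9 the promoter region at the lower end is in every row and the region about 35 kb inside is in the section rows only.

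The difference between tissues depended on how far down the lists were read. With the 25000 strongest regions, Cdh11 had 7, 7, 6 and 5 regions in the dLGN libraries, against 1, 1, 3 and 3 in the section libraries. With all lists kept to the length of the shortest, 192168 regions, it had 40, 35, 35 and 33 in the dLGN libraries and 40, 36, 33 and 45 in the section libraries. The Cdh11 difference was thus above 0 among the strong regions. It was −2.75 regions with the lists of 192168 and −4.75 regions with all deposited peaks, with overlap in both. Cdh2 behaved alike, with 8, 7, 8 and 8 regions in dLGN against 4, 7, 4 and 6 in sections among the 25000 strongest, where Fn14 KO 2 reached the lowest dLGN value. In the lists of 192168 regions its means were 68.8 ± 4.03 in dLGN and 67.8 ± 8.46 in sections (SD, n = 4 each). Cdh6 had a higher dLGN mean at every length, and its counts did not overlap with the 25000, 50000 and 100000 strongest regions. Cdh9 had a lower dLGN mean at every length, with 7, 8, 8 and 9 regions in dLGN and 11, 15, 14 and 16 in sections in the lists of 192168 regions, without overlap. The genes that limma called changed as well. With 25000 regions, where 2 of the 10 genes could be tested, it called Cdh13 (adjusted p = 0.0363, higher), and with 100000 it called Cdh6 (adjusted p = 0.0137, higher). With 192168 regions it called Cdh9 (limma adjusted p = 0.00210, lower), Cdh13 (0.00377, higher) and Cdh4 (0.0176, higher), and not Cdh2 (0.840), Cdh6 (0.108) or Cdh11 (0.495). With 50000 regions limma called 28.5% of all genes. That share is not given for the other lengths, so the calls there show only that the called genes change.

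**Figure D4:**
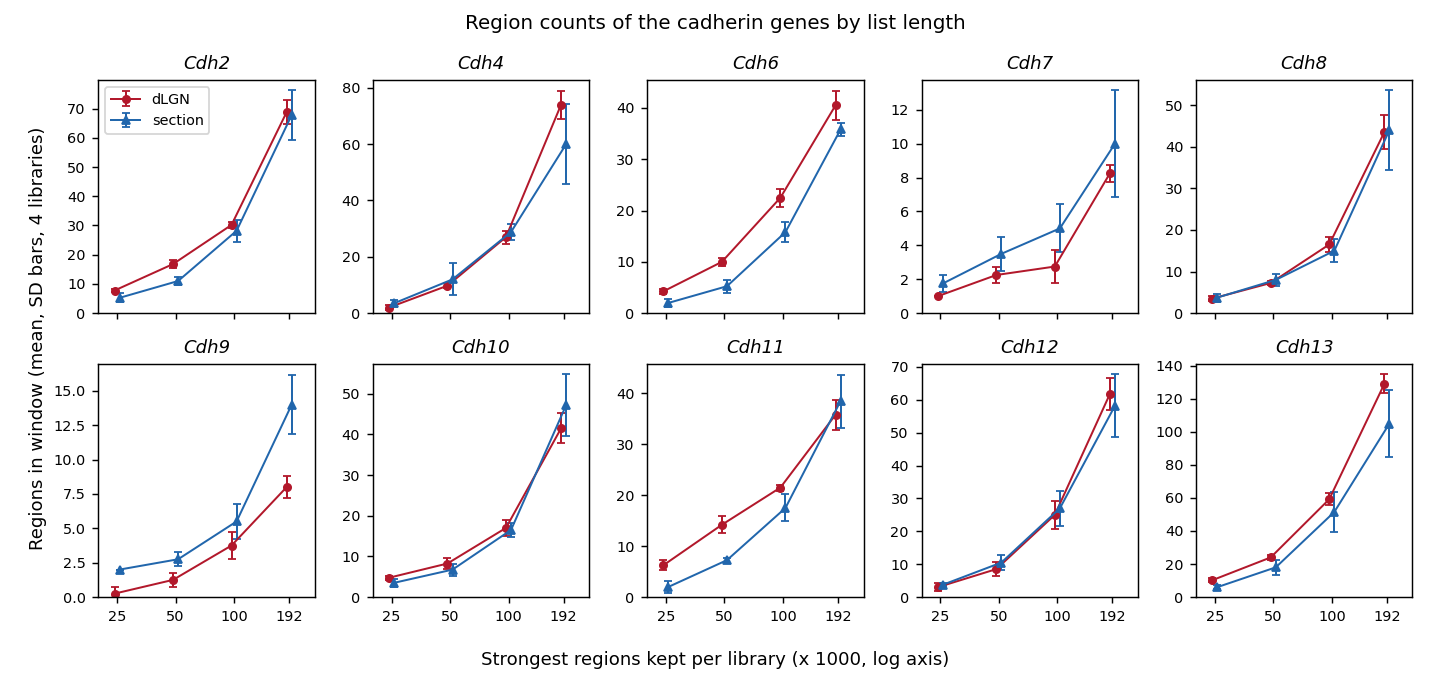
Mean number of regions in the window of each gene (y axis; bars, SD over 4 libraries) by the number of strongest regions kept per library (x axis, in units of 1000, log axis), for dLGN (circles) and sections (triangles). The curves of Cdh2 and Cdh11 meet at 192168 regions, those of Cdh6 stay apart up to 100000, and Cdh9 is lower in dLGN throughout.

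The cadherins' intracellular partners were counted from a list of 11 genes. Of these, 1 was higher and 1 lower in dLGN without overlap, with a median difference of −0.5 regions, against −0.250 over all genes. Of all genes, 7.82% were higher and 12.4% lower without overlap. Vcl, which encodes the actin linker vinculin, had 5, 7, 6 and 8 regions in the dLGN libraries, against 12, 13, 10 and 10 in the section libraries (limma adjusted p = 0.0195). Ctnna3, an alpha-catenin, had 34, 36, 34 and 33 in the dLGN libraries and 31, 29, 32 and 32 in the section libraries (limma adjusted p = 0.0400). The summed counts of the list were 133 to 135 in dLGN and 136 to 147 in sections.

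Of 10 further classical cadherin genes, 3 were higher and 1 was lower in dLGN without overlap, and the median difference was 0.375 regions. The shares of all genes to set beside these counts are again 7.82% higher and 12.4% lower. Cdh20, a type II gene, had 19, 20, 18 and 21 regions in the dLGN libraries, against 9, 12, 16 and 15 in the section libraries (limma adjusted p = 0.0193). Cdh24, a type II gene known to bind catenins, had 5, 6, 6 and 5 regions in the dLGN libraries, against 10, 10, 11 and 9 in the section libraries (limma adjusted p = 0.00902). Cdh19 had 5, 4, 4 and 4 in dLGN and 2, 2, 2 and 1 in sections, and Cdh3 (P-cadherin) had 2 in each dLGN library and 1, 0, 0 and 0 in sections. Both were too sparse for the limma test.

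Markers of the cells a section or a dLGN sample could hold were counted in the same way. The 11 cortical and hippocampal neuron genes summed to 27 to 33 regions in dLGN and 39 to 46 in sections, with 1 gene higher, 5 lower and Fezf2 at 0 in dLGN. The 8 astrocyte genes summed to 43 to 47 in dLGN and 50 to 60 in sections, with 3 lower. The 7 thalamic neuron genes summed to 36 to 47 in dLGN and 42 to 44 in sections, with 1 higher and 1 lower, so their count did not set the dLGN apart. Inhibitory neuron genes (26 to 32 in dLGN, 23 to 33 in sections), oligodendrocyte genes (58 to 78 in dLGN, 60 to 79 in sections), microglial genes (31 to 36 in dLGN, 34 to 44 in sections), and endothelial and mural genes (16 to 18 in dLGN, 15 to 22 in sections) overlapped. C1qa was at 0 in dLGN and also in Fn14 WT 1 and Fn14 WT 2. Flt1 was at 0 in dLGN and also in Fn14 WT 1. The 6 meningeal and choroid plexus genes gave 13 to 17 in dLGN and 17 to 20 in sections, with 1 lower and Dcn at 0 in dLGN. Over all genes 7.82% were higher and 12.4% lower in dLGN without overlap. The part of cell makeup in the cadherin differences was not tested.

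The second comparison asked what changes in sections without Fn14. With 2 libraries against 2 the smallest exact permutation p is 0.333, so no single gene can pass, and non-overlap is a description. Cdh10 had 5 and 6 regions in the Fn14 KO libraries, against 8 and 8 in the Fn14 WT libraries, and was the one cadherin gene without overlap. Genes without overlap made up 8.06% in the lower direction and 12.7% in the higher direction, so 1 of 10 is near the background. The KO and WT counts of Cdh10 overlapped with 25000 regions, 100000 regions, all deposited peaks or unmerged peaks. The count of cadherin genes without overlap was 8 without Fn14 KO 2, 4 without Fn14 WT 1 and 3 without Fn14 WT 2, among 45.5%, 40.1% and 36.7% of all genes in either direction. The limma difference of Cdh10 was −0.51 (SE 0.141, log2 scale), with an unadjusted limma p of 0.0150 and an adjusted p of 0.282. Limma called 0 cadherin genes and 0% of all genes, with 1 cadherin gene and 12.9% of all genes at an unadjusted p under 0.05.

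No single region carried the Cdh10 difference, since none was selected in both WT libraries and neither KO library. At chr15:18841924-18842539 the −log10 p was 6.98 and 7.35 in the KO libraries and 15.2 and 32.6 in the WT libraries, selected in Fn14 WT 2 only. The mean was below 0 in KO minus WT for 8 of the 10 genes, with a median of −1 region, against 0 over all genes. The share of all genes below 0 is not given. Over the 10 windows together the counts overlapped, with 87 and 84 regions in KO and 90 and 79 in WT. Fn14 KO 1 had the lowest or joint lowest section count at Cdh2, Cdh6, Cdh7, Cdh9, Cdh10, Cdh11 and Cdh12. Cdh4 went the other way in that library, with 19 regions in Fn14 KO 1 and 12 in Fn14 KO 2, against 12 and 5 in the WT libraries. The 12 regions of the series that were KO-only (0.0172% of 69650) and the 4 that were WT-only (0.00574%) included none at the 10 genes. With peaks of any strength allowed on the other side, 7 cadherin regions were selected in both KO libraries and neither WT library (5.51%, against 3.74% in the series), 4 of them in the Cdh4 window, of which 1 lies in Taf4. The strongest of the others, chr2:179836996-179837858, had −log10 p values of 45.7 and 40.7 in the KO libraries and 6.61 and 10.5 in the WT libraries. The reverse held for 2 cadherin regions (1.57%, against 3.21%).

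Among the partners, Vcl (12 and 13 regions in KO, 10 and 10 in WT) and Afdn, which encodes afadin (7 and 4 in KO, 3 and 2 in WT), were higher without overlap, and 2 genes were lower. These were Ctnna2, the neuronal alpha-catenin, with 27 and 29 in KO and 32 and 35 in WT, and Ctnna3, with 31 and 29 in KO and 32 and 32 in WT. Of the further cadherins, Cdh22 (10 and 6 in KO, 4 and 2 in WT) and Cdh1 (E-cadherin; 4 and 5 in KO, 3 and 3 in WT) were higher, and Cdh20 (9 and 12 in KO, 16 and 15 in WT) was lower. None had a limma adjusted p under 0.05. The microglial markers summed to 42 to 44 in KO and 34 to 35 in WT, with 4 of 10 higher, and the astrocyte markers to 50 to 55 in KO and 57 to 60 in WT, with 3 of 8 lower. Endothelial and mural markers summed to 17 to 22 in KO and 15 to 16 in WT, with 3 of 7 higher. Over all genes 12.7% were higher and 8.06% lower in KO without overlap. A step of 1 region can make such a call, as for Csf1r with 3 and 3 in KO and 2 and 2 in WT. The part of the markers in the cadherin values was not tested.

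The third comparison asked what changes in the dLGN on PLX chow. Cdh11 had 14 and 12 regions with PLX chow, against 16 and 15 with control chow, and was the one cadherin gene without overlap. The direction turned with list length: with the 25000 strongest regions Cdh11 had 7 and 7 in PLX and 6 and 5 in control chow, higher without overlap, and with 192168 it had 40 and 35 in PLX and 35 and 33 in control chow. Genes without overlap at 50000 regions made up 5.16% in the lower direction and 4.13% in the higher direction. The count of cadherin genes without overlap was 6 without PLX chow 1, 3 without PLX chow 2, 3 without control chow 1 and 5 without control chow 2, among 24.1% to 31.2% of all genes. For Cdh11 the limma difference was −0.25 (log2 scale) with an unadjusted limma p of 0.0586 and an adjusted p of 1. Limma called 0 cadherin genes and 0% of all genes, and an unadjusted p under 0.05 was reached by 0 cadherin genes and 4.90% of all genes. The mean was below 0 in PLX minus control for 7 of the 10 genes, with a median of −0.5 regions, against 0 over all genes. The share of all genes below 0 is not given. Over the 10 windows together the counts overlapped, with 106 and 95 regions in PLX and 104 and 104 in control chow.

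In Cdh11, chr8:102676939-102677719 was selected in both control chow libraries and neither PLX library, with a −log10 p of 21.9 and 22.8 in PLX and 40.2 and 29.8 in control chow. The nearby chr8:102694750-102695008 was the reverse, with 28.1 and 25.6 in PLX and 23.1 and 17.7 in control chow. Every library had a peak in both places, so the libraries differed there in strength and not in presence. Cdh10 had 2 regions selected in both control chow libraries and neither PLX library, the stronger being chr15:18844421-18845436 with 26.0 and 18 in PLX and 57.8 and 31.6 in control chow. In all, 1 cadherin region was selected in both PLX libraries and neither control library (0.775%, against 1.57% in the series), and 3 were the reverse (2.33%, against 1.61%). With no peak allowed on the other side, 1 region of the series was PLX-only (0.00160% of 62318) and 0% were control-chow-only, and none lay at the 10 genes.

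Among the partners Ctnna1 was lower without overlap, with 0 and 2 regions in PLX and 4 and 3 in control chow, and among the further cadherins Cdh15 (M-cadherin of muscle) was higher, with 4 and 4 in PLX and 3 and 3 in control chow. Microglial markers summed to 31 to 36 regions in PLX and 32 to 36 in control chow. Inhibitory neuron markers summed to 26 to 28 in PLX and 31 to 32 in control chow, with 1 of 11 higher and 3 lower. Over all genes 4.13% were higher and 5.16% lower in PLX without overlap. The part of the markers in the Cdh11 count was not tested.

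The genes on other chromosomes whose counts were most like those of Cdh2, Cdh6 and Cdh11 were ranked by Pearson r over the 8 libraries, among 7948 genes, as a description. The libraries fall into 2 tissues, which share list strength, so r here mostly restates a tissue difference. For Cdh2 these were Rhoj (r = 0.995) and Fndc9 (r = 0.989), for Cdh6 Alg14 (r = 0.993) and Ldhb (r = 0.991), and for Cdh11 Olfm3 (r = 0.995) and Btbd11 (r = 0.984). Olfm3 had 9, 7, 10 and 9 regions in the dLGN libraries, against 4, 4, 5 and 4 in the section libraries.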

How the data were processed

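Open chromatin was measured by ATAC-seq in 8 libraries, 2 per group. Reads were processed with the ENCODE ATAC-seq pipeline on build mm10 with peaks at p of 0.01 or lower, as the deposited pipeline instructions state, and deepTools 3.5.0 is named in the submitters' processing notes. Peaks were called per sample, and which aligner and peak caller ran is not given in the sources used here. The deposited lists give per peak the authors' fold over local background (a ratio) and the p-value and q-value as −log10, which were used only to describe, rank and filter peaks within a list. No counts of reads were used, so depth is unknown and no counting interval is given.

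Overlapping peaks were merged, each list was reduced to its 50000 strongest regions by −log10 p, and regions overlapping a gene window by 1 bp or more were counted. A group was called higher or lower when its counts did not overlap those of the other. Exact 2-sided permutation tests were adjusted by the Benjamini-Hochberg method over 19210 genes. limma 3.58.1 in R 4.3.3 was run on log2(count + 0.5) with 1 mean per group, over 8037 genes, and neighbouring genes share regions. Interval counting and tests were tested on simulated data. Regions selected in every library of a group, with no deposited peak in the other, were called for that group.

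All 10 genes are named. From the partners and the further cadherins, up to 4 genes per list without overlap between tissues and up to 2 per list in the other comparisons were named, by largest difference; Vcl, Ctnna3 and Cdh1 in the Fn14 comparison lie outside this rule and were named after their values were seen. The members, lists and rules were chosen with earlier results of these data known. RefSeq gene and promoter tables (GRCm38.p6, mm10) gave positions and sequences. At 1668 of 1668 overlaps of promoters on opposite strands the sequences were reverse complements. The alternatives were other list lengths, all peaks, no window extension, base pairs covered, unmerged peaks, a q limit of 0.05, a looser absence rule, 50% overlap, a replicate block, each library left out, and, added after seeing the data, limma and lists cut to 192168 regions.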

Additional observations from a re-analysis of the deposited data

How the results depend on the processing

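The number of the 10 genes whose counts did not overlap between dLGN and sections was 3 with 50000 regions (20.3% of all genes), 4 with 25000 (17.2%), 1 with 100000 (19.9%), 1 with all peaks (19.8%), 1 with the shortest list length (21.9%), 5 by base pairs covered (37.4%), 4 unmerged (21.6%), and 3 to 6 with a library left out (22.0% to 26.3%); for control chow against WT it was 7 (37.3%). Limma called Cdh2, Cdh6 and Cdh11, with no window extension also Cdh10, unmerged Cdh6, Cdh11 and Cdh13, with 25000 regions 1 gene (Cdh13), with 100000 regions 1 gene (Cdh6), and with the shortest list length Cdh4, Cdh9 and Cdh13; with a library left out it called 1 to 3 genes, each among Cdh2, Cdh6 and Cdh11. Between KO and WT the number without overlap was 1 (20.8% of all genes), and 2 with 25000 (14.3%), 7 with 100000 (26.9%) and 4 with all regions (42.1%), 2 with no extension (9.92%), 2 by base pairs (49.4%), 4 unmerged (22.8%), 4 with the shortest list length (32.8%) and 1 to 8 with a library left out (36.4% to 45.5%); limma called 1 gene, Cdh13, with the shortest list length alone. Between PLX and control chow it was 1 (9.29%), and 2 with 100000 (14.2%) and 5 with all regions (23.6%), 5 by base pairs (31.8%), 0 unmerged (10.9%), 3 with the shortest list length (19.7%) and 3 to 6 with a library left out (24.1% to 31.2%). For limma the share of all genes called is given at the main setting only, 28.5% between tissues and 0% between KO and WT. The limma calls under the other settings therefore have no background beside them.

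Region calls moved most. The 2 dLGN-only regions became 0, 22, 64 and 7 with 25000 regions, 100000 regions, all peaks with q of 0.05 and absence from the 100000 strongest, and 2 to 4 with a library left out. The 5 section-only regions became 2, 18, 54 and 8 likewise, and 5 to 8 with a library left out. The 0 KO-only regions became 2 with 100000 regions and 40 with q of 0.05, the 0 WT-only regions 1 and 6, the 0 PLX-only regions 13 with q of 0.05, and the 0 control-chow-only regions 1 and 15. The matching counts over all regions of the series are not given here. These numbers therefore show how far the calls depend on the rule and are not a result about the cadherin genes.

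Of 410 single-gene differences under alternatives, 279 kept their direction and call, 13 kept the direction without the call, 76 gained one, 33 moved and 9 reversed. With all peaks the tissue difference was −1 for Cdh2 and −4.75 for Cdh11, the KO minus WT difference 2 for Cdh6 and the PLX minus control difference 4 for Cdh11. With the shortest list length the tissue difference was −2.75 for Cdh11, and PLX minus control was 5.5 for Cdh2 and 3.50 for Cdh11. With 25000 regions PLX minus control was 1.5 for Cdh11, whose call turned to higher without overlap, and for Cdh2 it was −2 to 1 with a library left out. The causes were not tested. Deviations of same-numbered libraries from their group means correlated at 0.133 between KO and WT and −0.0327 between PLX and control chow, over 8037 genes. With 2 libraries a group this cannot settle whether libraries were prepared in pairs. With the replicate block 3 genes separated between tissues, 3 between KO and WT (Cdh4, Cdh10, Cdh13) and 1 between PLX and control chow. In the KO and PLX comparisons each block sets 1 library against 1. The share of all genes is not given for the block, so these counts are not a result about the cadherin genes. Depth is unknown, and 2 libraries a group limit both the KO and the PLX comparison.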
